A study of Homo sapiens with 12 samples.

Results

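The 28 genes described here encode the enzymes, sensors and carriers of cholesterol and fatty acid synthesis. They were chosen by symbol from a list of the pathway, out of 44700 genes in the count tables, and grouped by role into 7 mevalonate enzymes, 11 squalene and sterol enzymes, 5 sensors and regulators, 2 sterol transport proteins and 3 fatty acid enzymes. The list was made with earlier results of these data known, so shares of members set beside shares of all genes are descriptive. RNA was sequenced from SK-MEL-5 and MALME-3M, which are established cell lines from human melanoma and labelled wild type, with and without interferon gamma (IFN-γ) for 24 h. SK-MEL-5 was grown in MEM with 10% fetal bovine serum and treated at 150 ng/mL, and MALME-3M was grown in IMDM with 20% fetal bovine serum and treated at 200 ng/mL. The cytokine was added when the cells were seeded. The 12 libraries formed 4 groups of 3, namely untreated SK-MEL-5, treated SK-MEL-5, untreated MALME-3M and treated MALME-3M. Line, medium, serum and dose differed together, so their parts in any difference between the lines cannot be told apart. The groups of 3 came from wells seeded in parallel, so the spread that p-values rest on is that of parallel wells and may be technical.

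Cells build cholesterol from acetyl-CoA through mevalonate, farnesyl diphosphate, squalene and lanosterol, and most enzymes on this route are transcribed under SREBP-2, the product of SREBF2. When sterol in the endoplasmic reticulum is low, the escort protein SCAP carries the SREBP precursors to the Golgi, where they are cut and their released part enters the nucleus. When sterol is high, INSIG1 and INSIG2 hold SCAP back. SREBP-1, the product of SREBF1, acts more on fatty acid genes such as FASN and SCD, and SREBF1 is itself a target of the oxysterol-sensing LXR receptors. Interferons are known in macrophages to lower sterol synthesis.

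Gene counts totalled 15514412 to 22921184 per library, and 15810 genes, 27 of the 28 members among them, had enough counts to be tested. Levels are TMM-scaled CPM, the counts of a gene per 1e+06 counts of the library, given in the order of the libraries. Changes are log2 fold changes ± SE. A gene was called where the quasi-likelihood test of edgeR gave an adjusted p under 0.05 (Benjamini-Hochberg, all genes tested), and every adjusted p comes from that test unless another source is named. The interferon response gene IRF1 was at 2.45 to 5.91 CPM in the untreated and 202 to 289 CPM in the treated libraries of both lines, as labelled. All 6 melanocyte lineage markers were above 1 CPM in every group, summing to 5064 to 5736 CPM per library, while leukocyte, epithelial and endothelial lists summed to at most 1.80 CPM. The fibroblast list of 6 genes summed to 162 to 189 CPM in untreated and 130.4 to 135 CPM in treated SK-MEL-5, mostly LUM, and to 18.2 to 19.5 and 15.3 to 17.7 CPM in MALME-3M. In untreated SK-MEL-5 the means of COL1A1 and COL3A1 were 0.718 and 0.0931 CPM. Of the 6 fibroblast genes, 2 were above 1 CPM in each SK-MEL-5 group, 3 in untreated and 4 in treated MALME-3M. Of the 5 tested, 1 was higher (log2 7.83) and 3 were lower in untreated MALME-3M than in untreated SK-MEL-5. The part of these markers in the results on treatment was not tested. In bulk RNA, fewer cells of a kind and less RNA per cell cannot be told apart.

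The promoters of the members were searched for 4 short motifs, and CCAAT stretches are shown for members that fell together in MALME-3M. CCAAT, read on either strand, is bound by NF-Y, a factor known to work beside SREBP. Of the 28 members, 23 were found in the RefSeq promoter table (GRCh38.p14, 250 bases before to 50 after each start), and CCAAT occurred in 18 of these 23 (78.3%), beside 39.7% of all 27305 symbols in the table, and in 21 of their 31 windows (67.7%), beside 34.6% of all 35116 windows. ACAT2, FASN, GRAMD1B, FDFT1 and SQLE were not matched. For 6 of the members called lower in MALME-3M the table holds the motif, and 25 bases around a match are printed for each. The match is the one nearest before a RefSeq start of the gene, and matches reaching past a start were counted but not printed. The stretches run 5′ to 3′ on the gene's strand, with the motif in capitals.
HMGCS1 (chr5:43313498-43313522, minus strand): accggccgcgATTGGctgtgggagc
IDI1 (chr10:1048959-1048983, minus strand): ggcgcgagcgATTGGctgcgcggcc
EBP (chrX:48521768-48521792, plus strand): tcgcttcaccATTGGctcgctccgt
DHCR7 (chr11:71448427-71448451, minus strand): tccgcctccgATTGGcaggcaatcg
INSIG1 (chr7:155297698-155297722, plus strand): ccggcctcccATTGGttgcggccgc
SREBF2 (chr22:41832989-41833013, plus strand): tcgctcgcccATTGGctgagatgag

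In each of these the motif reads ATTGG, the reverse complement of CCAAT. Its first base lies 30 to 170 bases before a RefSeq start of the gene. PMVK, CYP51A1, INSIG2, SREBF1 and SCAP are in the table and have no CCAAT in their windows. Members that were not called lower in MALME-3M hold it too, SCD among them, which was called higher in SK-MEL-5. The letters TCACNCCAC, the core of a classical sterol response element, occurred in 1 member only, SREBF2, and in 1.13% of all windows, searched on both strands.
SREBF2: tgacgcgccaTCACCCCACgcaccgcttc
This stretch (GRCh38.p14, chr22:41832962-41832990, plus strand) begins its match 133 bases before the start and ends within the CCAAT stretch printed above. CACGTG, the E-box that SREBP and other factors bind, was found in LSS, SC5D, INSIG1 and SCAP (5 of 31 windows, 16.1%, beside 7.26% of all windows), and TTCNNNGAA, the letters of an interferon gamma-activated site, in 0 of 31 windows beside 7.66% of all. A match is a description of letters, not a binding site, and no match says only that these letters are not in this window.

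In MALME-3M, some of the sterol synthesis genes and FASN were called lower after IFN-γ by gene counts, while SREBF1 was called higher. Of 27 members tested, 9 (33.3%) were called lower and 1 (3.70%) higher, where 8.77% of all genes tested were called lower and 9.51% higher. The median log2 fold change of the members was -0.20, beside 0.00 for all genes tested. In SK-MEL-5, 6 members (22.2%) were called lower and 1 (3.70%) higher, where 7.05% of all genes were called lower and 5.98% higher, and the members' median was -0.15, beside -0.03 for all genes. As the members were listed with earlier results of these data known, the shares in both lines describe the list and do not test it. FDFT1, SQLE, DHCR7 and FASN were called lower in both lines, out of the 6 lower in SK-MEL-5 and the 9 lower in MALME-3M. The share of all genes called lower in both lines was not counted, so no excess is read from this overlap. Leaving out 1 library in turn left 8 to 10 members called in MALME-3M and 4 to 8 in SK-MEL-5, with the 4 reached without SK-MEL-5 treated replicate 3. From the transcript estimated counts, 1 member was called lower and 1 higher in each line, FASN and SREBF1 in MALME-3M and FDFT1 and SCD in SK-MEL-5, so the other calls on sterol enzymes rest on the gene counts. The split of all genes called in SK-MEL-5 was 946 higher and 1114 lower, but 1062 and 809 in a fit on its 2 groups alone, 1060 and 789 without MALME-3M treated replicate 1, 1100 and 849 without MALME-3M treated replicate 3, and 396 and 176 from the transcript estimated counts. Of 10 genes of cell division given beside these counts, 8 were called lower in MALME-3M (median -0.26; summed level 4246 to 4493 CPM untreated and 3432 to 3655 treated) and 1 in SK-MEL-5 (median -0.03); their part in the sterol results was not tested.

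**Figure D1:**
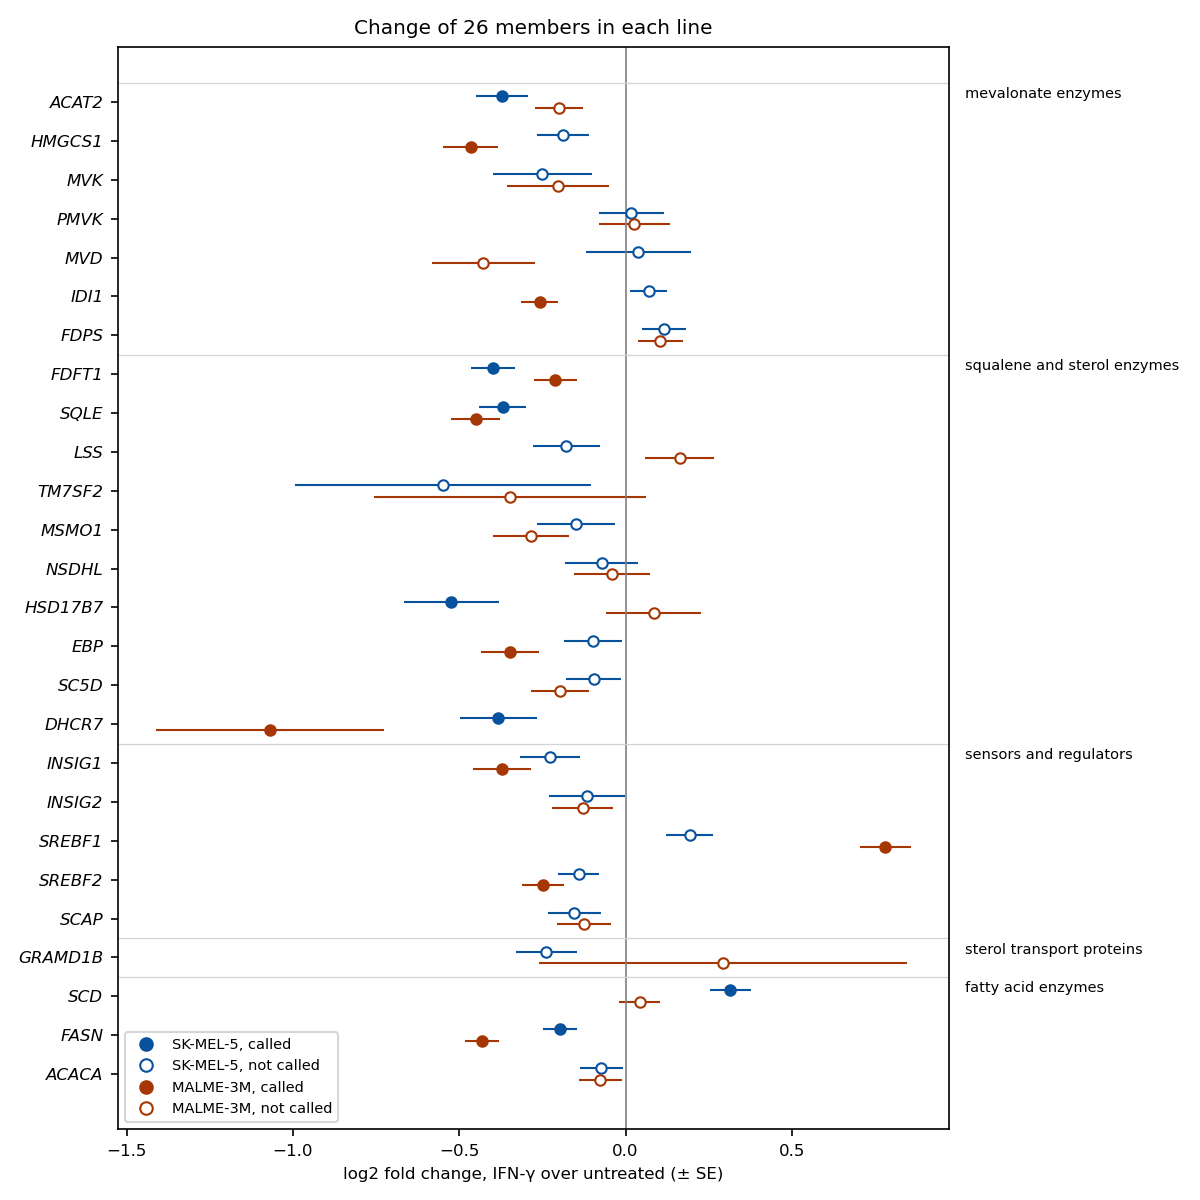
Change of 26 members after IFN-γ, as log2 fold change ± SE (horizontal axis) from 3 treated and 3 untreated libraries in each line, ordered by role, with filled points for called changes. CYP51A1 and STARD4, which were near 0 counts in at least 1 line, are not drawn. GRAMD1B and DHCR7 are drawn, although in MALME-3M they had 12 and 37 counts over the untreated and 17 and 20 over the treated libraries. Most points lie left of 0, and SREBF1 in MALME-3M lies farthest right, at 0.78.

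Among the mevalonate enzymes, HMGCS1 and IDI1 fell in MALME-3M and ACAT2 fell in SK-MEL-5. HMGCS1 (chr5:43289395-43313512, GENCODE 29 on GRCh38), the cytosolic synthase that makes HMG-CoA, was at 30.4, 28.9 and 27.8 CPM in untreated and 18.8, 20.7 and 23.5 CPM in treated MALME-3M, a change of -0.47 ± 0.083, adjusted p = 0.000503. The groups did not overlap, but from the transcript estimated counts the change was -0.17 ± 0.34, adjusted p = 0.861. In SK-MEL-5 it was at 57.1, 59.7 and 61.3 CPM untreated and 57.0, 48.6 and 50.6 CPM treated and was not called (-0.19 ± 0.078, adjusted p = 0.129), with the highest treated library just below the lowest untreated one. IDI1 (chr10:1039152-1049170), the isomerase that interconverts the isoprene units, was at 64.7, 70.0 and 64.7 CPM in untreated and 54.7, 53.7 and 58.2 CPM in treated MALME-3M (-0.26 ± 0.056, adjusted p = 0.00275). Every treated library lay below every untreated one there. In SK-MEL-5 the groups overlapped, at 66.4, 74.2 and 72.2 CPM untreated and 74.8, 73.4 and 75.4 CPM treated (0.07 ± 0.055, adjusted p = 0.497).

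The IDI1 changes differed between the lines, by -0.33 ± 0.079, adjusted p = 0.0204 on the log2 scale (MALME-3M minus SK-MEL-5). This call was lost when any 1 of 4 libraries was left out (SK-MEL-5 untreated replicate 1, SK-MEL-5 treated replicate 3, MALME-3M untreated replicate 2 or MALME-3M treated replicate 2), with adjusted p from 0.0602 to 0.0762. From the transcript estimated counts, which hold 10.1% as many reads of IDI1 as the gene counts, the difference was 0.01. ACAT2 (chr6:159760328-159779055), the cytosolic thiolase that joins acetyl-CoA units, was at 24.0, 24.9 and 21.6 CPM in untreated and 19.6, 17.9 and 16.9 CPM in treated SK-MEL-5 (-0.37 ± 0.077, adjusted p = 0.00258). The groups did not overlap. In MALME-3M it was at 47.8, 49.8 and 51.3 CPM untreated and 41.4, 43.5 and 44.7 CPM treated, groups that did not overlap either, and was not called (-0.20 ± 0.071, adjusted p = 0.0597). With DESeq2's size factors, upper-quartile scaling, DESeq2's own test or a fit on those 2 groups alone it was called lower there too, with adjusted p from 0.0292 to 0.0391. MVK, PMVK, MVD and FDPS had log2 fold changes short of the threshold in both lines, from -0.43 for MVD in MALME-3M to 0.12 for FDPS in SK-MEL-5; MVD, the decarboxylase, was called lower in MALME-3M without treated replicate 3 (adjusted p = 0.00549) and with upper-quartile scaling (0.0465), and FDPS, farnesyl diphosphate synthase, higher in SK-MEL-5 without untreated replicate 1 (0.0273).

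Of 10 squalene and sterol enzymes tested, 4 were called lower in each line. Over all genes tested the share called lower was 7.05% in SK-MEL-5 and 8.77% in MALME-3M. FDFT1, SQLE and DHCR7 were called lower in both lines by gene counts, and no excess is read from this overlap. FDFT1, squalene synthase and the first enzyme committed to sterols, was at 165, 160.0 and 155 CPM in untreated and 123, 121 and 119.6 CPM in treated SK-MEL-5 (-0.40 ± 0.065, adjusted p = 0.000283). In MALME-3M it was at 204, 209 and 201 CPM untreated and 188, 190.1 and 153 CPM treated (-0.21 ± 0.065, adjusted p = 0.0283). Neither pair of groups overlapped, but treated replicate 3 of MALME-3M lay far below the other two, and leaving out that library or any untreated MALME-3M library ended the call (adjusted p from 0.0570 to 0.0980). SQLE, squalene epoxidase, was at 61.1, 55.4 and 53.1 CPM in untreated and 45.8, 42.9 and 42.5 CPM in treated SK-MEL-5 (-0.37 ± 0.071, adjusted p = 0.00137). In MALME-3M it was at 38.1, 38.9 and 39.4 CPM untreated and 25.5, 30.4 and 29.03 CPM treated (-0.45 ± 0.073, adjusted p = 0.000193). All treated libraries of SQLE were below all untreated ones in both lines by gene counts. From the transcript estimated counts the SQLE change was -0.03 ± 0.24, adjusted p = 0.984 in SK-MEL-5 and -0.21 ± 0.24, adjusted p = 0.727 in MALME-3M.

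DHCR7 (chr11:71428193-71452868), which reduces 7-dehydrocholesterol to cholesterol in the last step of one branch, was at very different levels in the lines. In SK-MEL-5 it was at 37.6, 40.3 and 39.1 CPM untreated and 30.5, 28.96 and 30.2 CPM treated (-0.38 ± 0.12, adjusted p = 0.0334). In MALME-3M it had 37 counts over the 3 untreated and 20 over the 3 treated libraries, or 0.601, 0.543 and 0.937 CPM and 0.361, 0.515 and 0.135 CPM (-1.07 ± 0.34, adjusted p = 0.0363). The groups did not overlap in either line. Both calls were near the threshold: the SK-MEL-5 call was lost without any 1 of 5 libraries (untreated replicate 2 or 3, treated replicate 1, 2 or 3; adjusted p from 0.0719 to 0.129), and the MALME-3M call without untreated replicate 3 or treated replicate 1 or 3 (0.0554 to 0.304) and without the filter on low counts (0.0601).

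HSD17B7, a 3-ketosteroid reductase of the sterol route, fell in SK-MEL-5 and EBP, the sterol isomerase, in MALME-3M. HSD17B7 (chr1:162790702-162812817) was at 7.76, 7.12 and 6.89 CPM in untreated and 5.38, 5.01 and 4.69 CPM in treated SK-MEL-5 (-0.52 ± 0.14, adjusted p = 0.0188), and in MALME-3M at 5.65, 6.51 and 5.52 CPM untreated and 6.19, 6.84 and 5.70 CPM treated (0.08 ± 0.14, adjusted p = 0.755). Its groups were apart in SK-MEL-5 and overlapped in MALME-3M, but the difference of the changes was not called (0.61 ± 0.20, adjusted p = 0.105), and the SK-MEL-5 call was lost without untreated replicate 1 or 2, without treated replicate 2 or 3 and without the filter (adjusted p from 0.0537 to 0.0824). EBP (chrX:48521158-48528716) was at 29.3, 30.3 and 30.1 CPM in untreated and 23.6, 22.6 and 24.4 CPM in treated MALME-3M (-0.35 ± 0.088, adjusted p = 0.00879), and at 28.05, 23.5 and 23.7 CPM untreated and 21.6, 25.5 and 23.1 CPM treated in SK-MEL-5 (-0.10 ± 0.088, adjusted p = 0.555). Again the groups were apart in the first line and overlapped in the second, with no call for the difference (-0.25 ± 0.12, adjusted p = 0.334). LSS, MSMO1, NSDHL, SC5D and TM7SF2 were called in neither line, with log2 fold changes from -0.55 for TM7SF2 in SK-MEL-5, at under 2 CPM, to 0.16 for LSS in MALME-3M. CYP51A1, lanosterol demethylase, had 4 gene counts in the 12 libraries and was not tested.

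**Figure D2:**
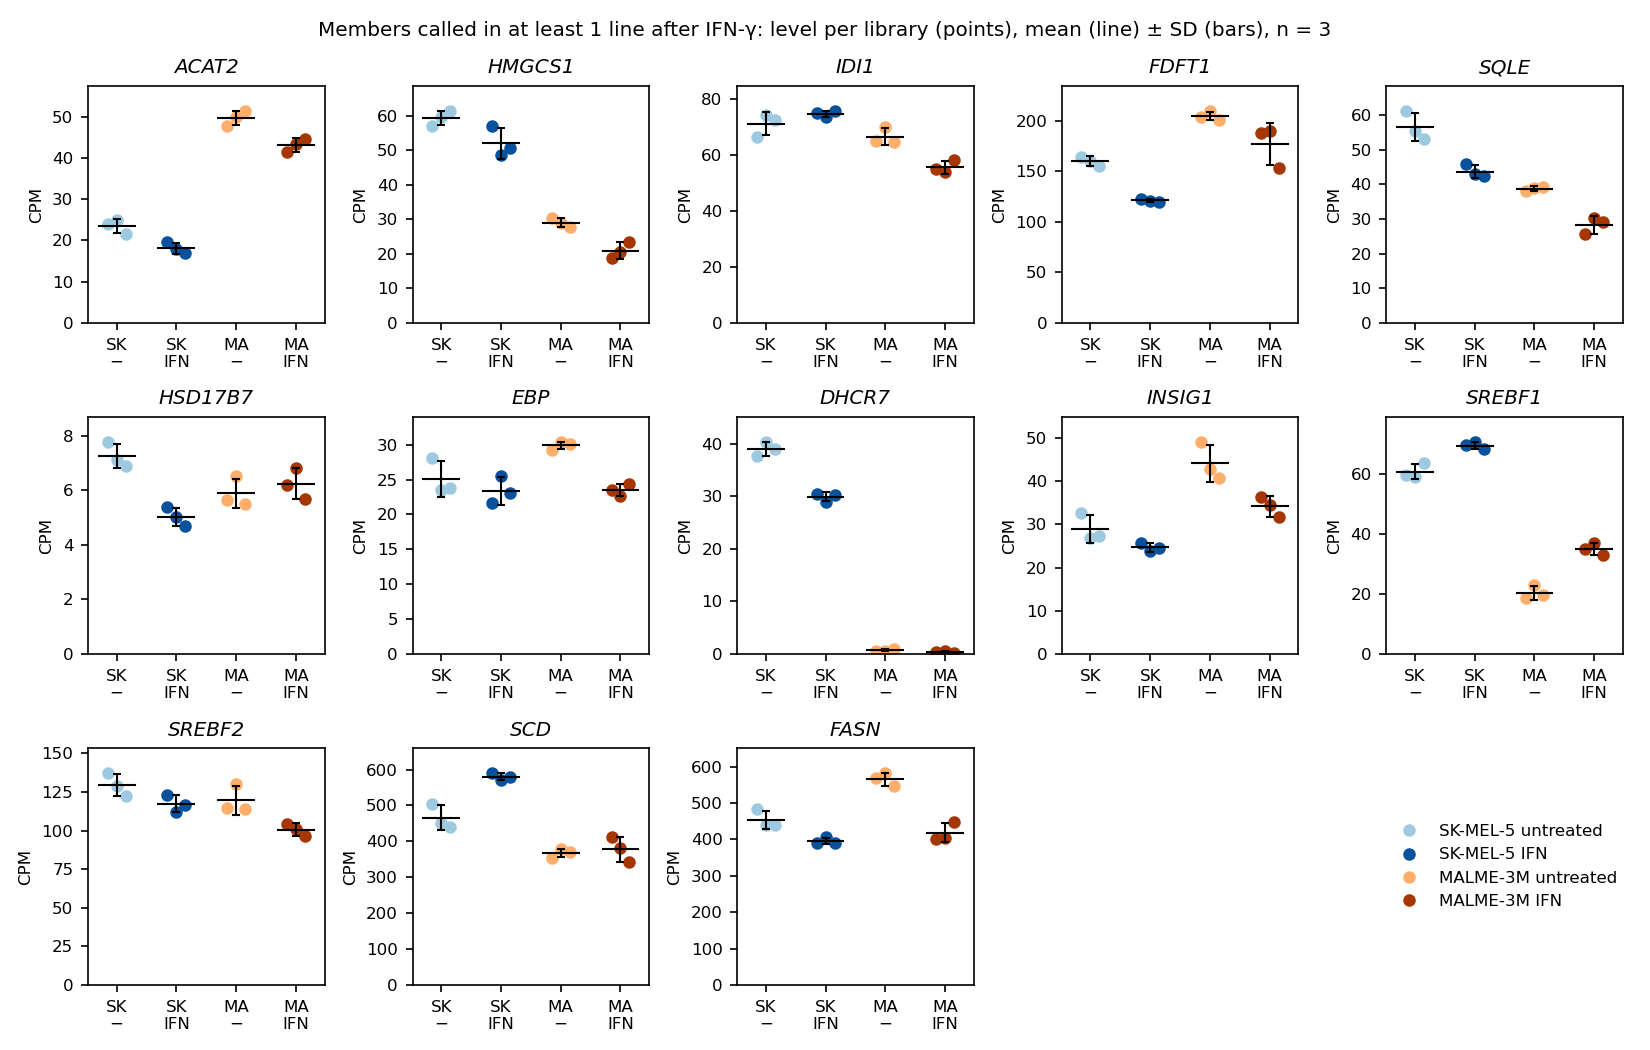
Level in CPM (vertical axes from 0) of the 13 members called in at least 1 line, for 3 libraries (points) in each of 4 groups, with mean and SD (n = 3), where SK is SK-MEL-5, MA is MALME-3M and − is untreated. SREBF1 rises from a mean of 20.4 to 35.0 CPM in MALME-3M, while DHCR7 lies near 0 in both MALME-3M groups.

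Among the sensors and regulators, SREBF1 rose in MALME-3M, whereas SREBF2 and INSIG1 fell there. SREBF1 (chr17:17810399-17837002), which encodes SREBP-1, was at 18.6, 23.1 and 19.5 CPM in untreated and 35.0, 37.0 and 33.0 CPM in treated MALME-3M, a rise of 0.78 ± 0.076, adjusted p = 4.11e-07 or 1.72-fold. In SK-MEL-5 it was at 59.4, 58.9 and 63.7 CPM untreated and 69.6, 70.4 and 68.1 CPM treated and was not called (0.19 ± 0.070, adjusted p = 0.0825). Treated libraries lay above untreated ones without overlap in both lines, and even the treated MALME-3M libraries lay below the untreated SK-MEL-5 ones. The changes differed by 0.59 ± 0.10, adjusted p = 0.00176, called under every alternative run on the gene counts (highest adjusted p = 0.00788) and not from the transcript estimated counts (0.49, adjusted p = 0.412). The MALME-3M rise was called there too (0.71, adjusted p = 0.0172). One transcript, ENST00000261646, held 74.3% of the SREBF1 estimated counts in untreated and 79.1% in treated MALME-3M, at 51.3, 105 and 128 and then 144, 200.3 and 222 estimated counts, which do not overlap. The SK-MEL-5 change was called in a fit on those 2 groups alone (adjusted p = 0.0165), and when untreated replicate 2 or treated replicate 3 of MALME-3M was left out (0.0468 and 0.0351).

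SREBF2, which encodes SREBP-2, was at 114, 130.2 and 114 CPM in untreated and 105, 101 and 96.5 CPM in treated MALME-3M (-0.25 ± 0.062, adjusted p = 0.00837). In SK-MEL-5 it was at 137, 129 and 123 CPM untreated and 123, 112 and 117 CPM treated (-0.14 ± 0.062, adjusted p = 0.162). The groups were apart in MALME-3M and overlapped in SK-MEL-5, and the call was lost without MALME-3M untreated replicate 2 (adjusted p = 0.0667) and from the transcript estimated counts (-0.08 ± 0.50, adjusted p = 0.973). INSIG1, itself a sterol-repressed SREBP target, was at 49.0, 42.9 and 40.8 CPM in untreated and 36.4, 34.5 and 31.6 CPM in treated MALME-3M (-0.37 ± 0.087, adjusted p = 0.00490). The SK-MEL-5 level was 32.7, 26.9 and 27.4 CPM untreated and 25.7, 23.7 and 24.6 CPM treated (-0.23 ± 0.090, adjusted p = 0.111). All treated libraries of INSIG1 were below all untreated ones in both lines, and the MALME-3M call held when any 1 library was left out.

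INSIG2, the second SCAP anchor, was at 6.17, 8.15 and 9.07 CPM in untreated and 7.53, 7.21 and 6.97 CPM in treated SK-MEL-5 (-0.12 ± 0.12, adjusted p = 0.602). In MALME-3M it was at 45.6, 47.1 and 46.0 CPM untreated and 40.6, 44.5 and 41.7 CPM treated (-0.13 ± 0.092, adjusted p = 0.388). SCAP, the escort, was at 53.4, 51.0 and 44.7 CPM in untreated and 44.4, 47.2 and 42.2 CPM in treated SK-MEL-5 (-0.15 ± 0.079, adjusted p = 0.248), and at 39.4, 33.8 and 38.4 CPM untreated and 32.4, 33.2 and 36.7 CPM treated in MALME-3M (-0.12 ± 0.081, adjusted p = 0.336). Neither gene was called in either line; the INSIG2 groups were apart in MALME-3M alone and the SCAP groups overlapped in both lines.

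Of the fatty acid enzymes, FASN fell in both lines and SCD rose in SK-MEL-5. FASN (chr17:82078333-82098332), the synthase that builds palmitate, was at 568, 581 and 546 CPM in untreated and 403, 405 and 448 CPM in treated MALME-3M (-0.43 ± 0.051, adjusted p = 5.18e-06). SK-MEL-5 had it at 482, 439 and 439.8 CPM untreated and 391, 406 and 391 CPM treated (-0.20 ± 0.051, adjusted p = 0.0146). No groups overlapped, but the SK-MEL-5 call was lost without untreated replicate 1 or treated replicate 1 or 3 (adjusted p from 0.0524 to 0.0716), and from the transcript estimated counts the change there was 0.02. SCD (chr10:100347124-100364834), the desaturase that makes oleate, was at 505, 452 and 441 CPM in untreated and 589, 569.9 and 579.5 CPM in treated SK-MEL-5 (0.32 ± 0.061, adjusted p = 0.00138). In MALME-3M it was at 354, 378 and 369 CPM untreated and 411, 382 and 342 CPM treated (0.04 ± 0.061, adjusted p = 0.713). The SCD groups were apart in SK-MEL-5 and overlapped in MALME-3M; the difference of the changes was -0.27 ± 0.086, adjusted p = 0.0867 for SCD and -0.24 ± 0.072, adjusted p = 0.0758 for FASN. Both differences were called with DESeq2 (adjusted p = 0.0184 and 0.0138) and without the filter on low counts (0.00472 and 0.0268), and that of FASN with upper-quartile scaling (0.0413) and from the transcript estimated counts (-0.49, adjusted p = 0.0293). ACACA, acetyl-CoA carboxylase, was called in neither line (-0.07 and -0.08).

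Over all members, the difference of the changes was called for SREBF1 upward and IDI1 downward, 1 of 27 (3.70%) in each direction, beside 2.67% of all genes upward and 1.79% downward. The split over all genes was 422 higher and 283 lower, and 340 and 351 with upper-quartile scaling. The median difference was -0.01 for the members and 0.02 for all genes tested.

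By gene counts, the sterol transport proteins GRAMD1B and STARD4 were present in SK-MEL-5 and at few or no counts in MALME-3M. GRAMD1B (Aster-B, chr11:123358428-123627774), which moves cholesterol from the plasma membrane to the endoplasmic reticulum, was at 687, 685 and 685 CPM in untreated and 573, 594 and 579 CPM in treated SK-MEL-5 (-0.24 ± 0.093, adjusted p = 0.107). These groups did not overlap, and the fall was called in a fit on those 2 groups alone (adjusted p = 0.00189), with DESeq2 (1.37e-07), without the filter (0.000101) and without MALME-3M untreated replicate 3 (0.0246), the library with 0 counts of the gene. From the transcript estimated counts the SK-MEL-5 groups of GRAMD1B overlapped and the change was not called (-0.16 ± 0.21, adjusted p = 0.802). STARD4 (chr5:111496033-111512590), a soluble sterol carrier, was at 28.8, 32.3 and 25.2 CPM untreated and 33.4, 29.4 and 34.0 CPM treated in SK-MEL-5 (0.16 ± 0.12, adjusted p = 0.442). The STARD4 groups overlapped.

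More members differed between the lines than after treatment in either of them, and the same held over all genes tested. Of these, 11336 were called between the untreated lines, beside 2060 after treatment in SK-MEL-5 and 2890 in MALME-3M. Of 27 members, 8 (29.6%) were higher and 14 (51.9%) lower in untreated MALME-3M than in untreated SK-MEL-5, where 34.5% of all genes tested were higher and 37.2% lower. In the treated libraries 4 (14.8%) were higher and 15 (55.6%) lower, beside 35.4% and 36.4% of all genes. The members' median was -0.34 in both comparisons, beside -0.02 and 0.00 for all genes. These comparisons share libraries with the treatment comparisons above.

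STARD4 had 1676 counts in untreated SK-MEL-5 and 1 count in untreated MALME-3M, a depth-corrected ratio of 1518 (exact Clopper-Pearson limits at 95% of 272 and 59974, for counting error). In the treated libraries it had 1750 counts and 0, at least 647-fold lower against a floor of 3 counts over the group, which is 0.0498 CPM. The transcript tables gave it 1 and 0 estimated counts in MALME-3M as well. CAMK4, the next gene 1147 bases away, was at a mean of 130.4 CPM in untreated MALME-3M and 78.6 CPM in untreated SK-MEL-5, whereas NREP and EPB41L4A on the other side were at 3.99 and 0.0374 CPM in MALME-3M and 7.16 and 4.68 CPM in SK-MEL-5. DHCR7 was 54.9-fold lower in untreated MALME-3M (-5.78 ± 0.18, adjusted p = 7.38e-16), and -5.51 from the transcript estimated counts, while NADSYN1, 241 bases away, was at 35.1 CPM there and 99.6 CPM in SK-MEL-5.

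GRAMD1B depended on the table. By gene counts it had 39718 counts in untreated SK-MEL-5 and 12 in untreated MALME-3M (-11.51 ± 0.19, adjusted p = 1.01e-19). The transcript tables gave it 8165 and 1640 estimated counts and a difference of -2.16 ± 0.22, adjusted p = 6.74e-06. Nearly all of the MALME-3M estimate, 99.9%, was on 1 transcript, ENST00000529432, at 376, 722 and 540 estimated counts, and the same transcript held 12.02% of the estimate in untreated SK-MEL-5. The other transcripts of GRAMD1B summed to few or no counts in MALME-3M and carried most of the estimate in SK-MEL-5. SCN3B, 1413 bases beyond it, was near 0 CPM in both lines. ZNF202, farther on that side, was at a mean of 12.1 CPM in untreated MALME-3M and 19.8 CPM in untreated SK-MEL-5. On the other side, CLMP was at 13.7 and 0.0148 CPM and HSPA8 at 1574 and 2630 CPM, in the same order of lines.

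The other line differences were smaller. INSIG2 was 5.88-fold higher in untreated MALME-3M (2.56 ± 0.10, adjusted p = 5.36e-14) and 5.83-fold higher in treated MALME-3M (2.54 ± 0.11, adjusted p = 7.08e-14), and INSIG1 1.53-fold higher untreated (0.61 ± 0.088, adjusted p = 4.50e-06). SREBF1 was 2.98-fold lower untreated (-1.57 ± 0.076, adjusted p = 6.19e-13) and 1.98-fold lower treated (-0.98 ± 0.072, adjusted p = 3.66e-10). ACAT2 was 2.11-fold higher in untreated MALME-3M (1.08 ± 0.074, adjusted p = 1.38e-10), while HMGCS1, the next enzyme on the route, was 2.05-fold lower (-1.03 ± 0.080, adjusted p = 9.10e-10). Both sat on the same side in the treated libraries (1.25 and -1.31).

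The remaining called members differed by less than 1 on the log2 scale in untreated MALME-3M. MVD (0.43), FDFT1 (0.36), MSMO1 (0.35), EBP (0.26) and FASN (0.32) were higher. MVK (-0.39), PMVK (-0.97), FDPS (-0.90), SQLE (-0.54), LSS (-0.58), NSDHL (-0.55), SC5D (-0.75), SCAP (-0.42) and SCD (-0.34) were lower. In the treated libraries FDFT1 (0.54), INSIG1 (0.47), ACAT2 and INSIG2 were the members called higher. PMVK, FDPS, SQLE, LSS, NSDHL, SC5D, SCAP and SCD stayed lower, from -0.96 for PMVK to -0.24 for LSS, and IDI1 (-0.42) and SREBF2 (-0.22) were called lower there alone, although the difference of the changes was called for IDI1 and not for SREBF2. LSS lost its treated call with DESeq2 (adjusted p = 0.0535), without the filter (0.139) and without treated replicate 1 or 3 of SK-MEL-5 or any treated MALME-3M library (0.0515 to 0.127). Among the untreated lines, MVK lost its call without replicate 1 or 3 of untreated SK-MEL-5, untreated MALME-3M or treated MALME-3M (0.0568 to 0.178). MVD lost it without untreated SK-MEL-5 replicate 1 or 3 or untreated MALME-3M replicate 2 (0.0621 to 0.0671), and EBP without untreated SK-MEL-5 replicate 2 or 3 (0.0640 to 0.0712).

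**Figure D3:**
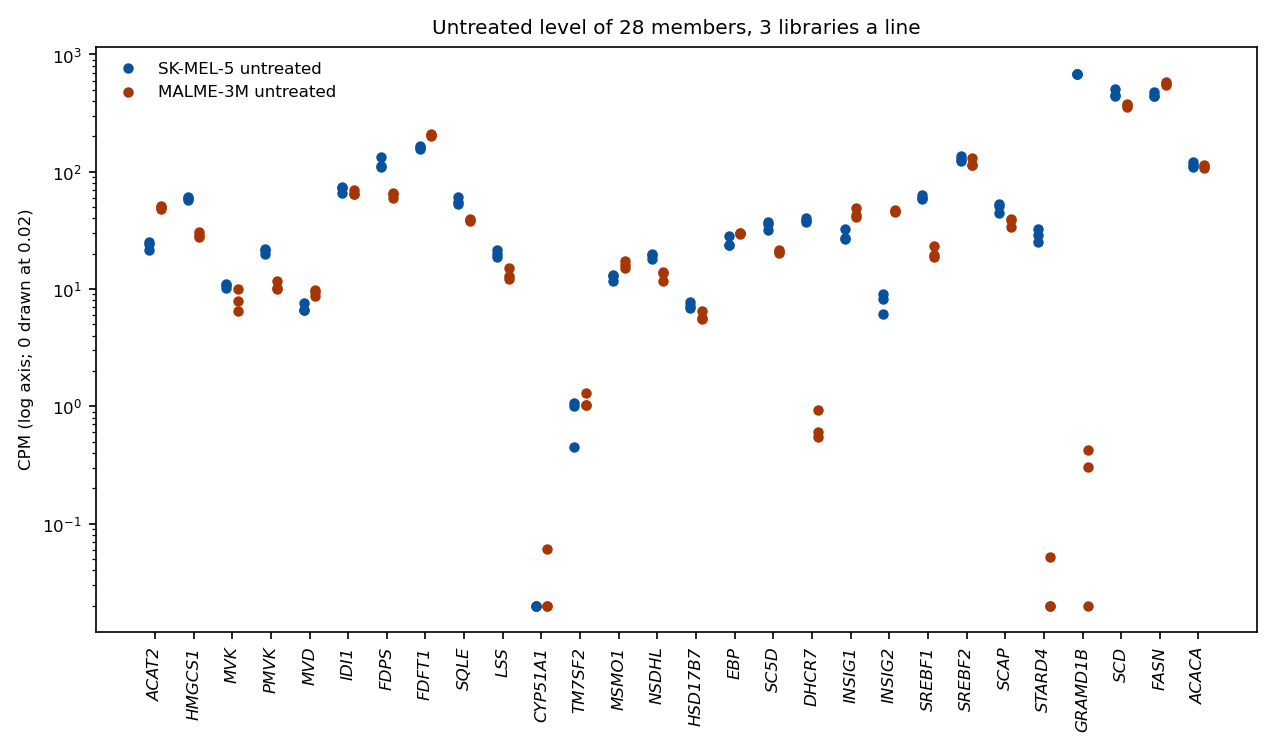
Level of each of 28 members in the 3 untreated libraries of SK-MEL-5 and of MALME-3M, in CPM on a log axis, with 0 drawn at 0.02. STARD4, GRAMD1B and DHCR7 lie far lower in MALME-3M, and INSIG2 lies higher, at a mean of 46.2 against 7.80 CPM.

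Per length of transcript, the members differed widely within each line. Rescaled TPM values, which count transcripts and correct for their length (n = 3), were highest in untreated SK-MEL-5 for GRAMD1B (299 ± 16.6), FDFT1 (256 ± 10.7), FDPS (202 ± 12.6) and SCD (149.5 ± 10.5), beside a median member of 15.8 TPM. In untreated MALME-3M the order was led by FDFT1 (333 ± 12.6), FASN (149 ± 11.5), FDPS (113 ± 7.50) and SCD (111 ± 7.53), beside a median of 11.8 TPM. FDPS and SCD did not differ beyond their spread in MALME-3M. By gene counts per kilobase of exon SCD ranked first in every group, and FASN next.

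The gene counts and the transcript tables did not always count the same reads. The transcript sums were 2.30% to 94.0% as large as the gene counts over 27 members, with a median of 48.4%, and 5 were under 20%: PMVK (2.30%), SREBF2 (8.40%), IDI1 (10.1%), SC5D (11.7%) and SCAP (14.1%). CYP51A1 was the opposite case, with 4 gene counts and 11300 estimated counts. Its estimated level was 102.5 ± 11.2 CPM in untreated and 105 ± 9.30 CPM in treated SK-MEL-5, and 124 ± 6.70 CPM and 114 ± 4.94 CPM in MALME-3M (SD, n = 3). From these estimates it was not called after treatment in either line (0.03 and -0.12; adjusted p = 0.936 and 0.552) and was higher in untreated MALME-3M (0.28, adjusted p = 0.0202). Exons of CYP51A1 overlap those of CYP51A1-AS1 in GENCODE 29, and exons of ACAT2, HMGCS1, MVK, IDI1, FDPS, FDFT1, LSS, TM7SF2, SREBF1, SREBF2 and STARD4 overlap other genes too. Without a known strand setting their reads cannot be told apart from those of the overlapping genes.

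**Figure D4:**
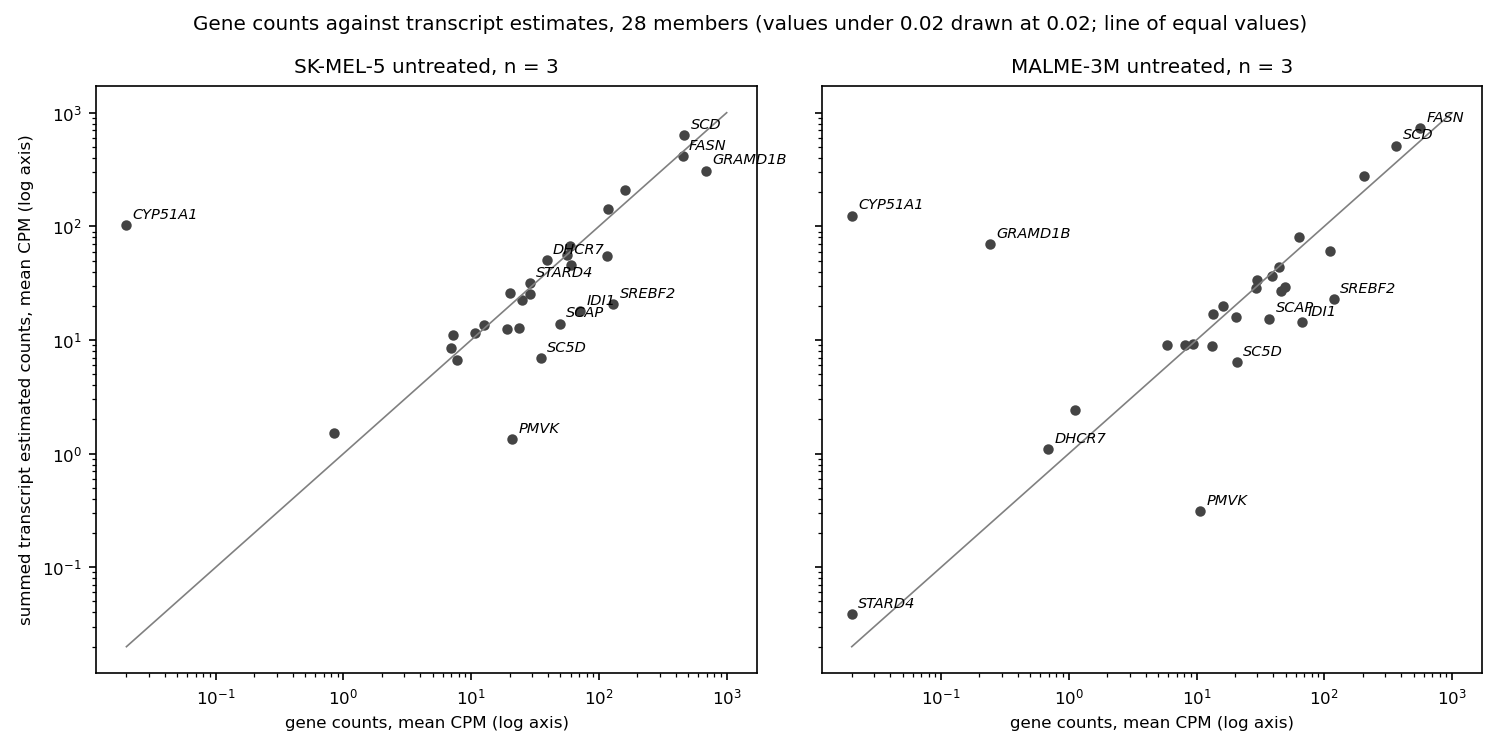
Mean level of 28 members from gene counts (horizontal axis) against the level from summed transcript estimated counts (vertical axis), both in CPM on log axes, in the untreated libraries (n = 3); the line marks equal values. CYP51A1 lies far above the line in both lines and GRAMD1B in MALME-3M alone, while PMVK lies far below it.

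Genes of neighbouring steps of lipid metabolism are read against the shares over all genes, 7.05% lower and 5.98% higher in SK-MEL-5 and 8.77% lower and 9.51% higher in MALME-3M. Of 11 other fatty acid genes, 3 were lower and 1 higher in MALME-3M and 2 lower in SK-MEL-5: ACACB (-0.31 ± 0.077, adjusted p = 0.00717) and ELOVL5 (-0.27 ± 0.069, adjusted p = 0.00947) fell in MALME-3M, ACSL3 fell in both lines (-0.17 ± 0.046, adjusted p = 0.0213 in SK-MEL-5 and -0.20 ± 0.046, adjusted p = 0.00562 in MALME-3M), ME1, which makes NADPH, fell in SK-MEL-5 (-0.31 ± 0.098, adjusted p = 0.0401), and ACSS2, which makes acetyl-CoA from acetate, rose in MALME-3M (0.41 ± 0.11, adjusted p = 0.0107). Of 9 genes of SREBP processing, sterol sensing and lysosomal export, MBTPS2, the site-2 protease that releases SREBP, was the 1 called, lower in both lines (-0.18 ± 0.047, adjusted p = 0.0138 and -0.15 ± 0.047, adjusted p = 0.0289). Of 8 isoprenoid branch genes, NUS1, a subunit of the dolichol-making transferase, fell in SK-MEL-5 (-0.32 ± 0.057, adjusted p = 0.000800) and the 8 ranged from -0.23 to 0.07 in MALME-3M. A single call among 8 or 9 genes is near the share over all genes.

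Of 7 tested genes of oxysterol handling, LXR signalling and esterification, ABCA1, the cholesterol exporter and an LXR target like SREBF1, rose in MALME-3M. ABCA1 was at 14.1, 16.0 and 17.3 CPM in untreated and 27.1, 25.2 and 19.4 CPM in treated MALME-3M (0.59 ± 0.11, adjusted p = 0.00108), and at 28.7, 24.5 and 25.2 CPM untreated and 29.5, 30.0 and 28.3 CPM treated in SK-MEL-5 (0.17 ± 0.11, adjusted p = 0.395). The MALME-3M groups did not overlap, the SK-MEL-5 groups did, and the difference of the changes was not called (0.43 ± 0.16, adjusted p = 0.163). SOAT1, which esterifies cholesterol, rose in MALME-3M (0.22 ± 0.055, adjusted p = 0.00758). MYLIP, a ubiquitin ligase that is also an LXR target, rose in SK-MEL-5 (0.21 ± 0.060, adjusted p = 0.0255) and was at -0.00 ± 0.064, adjusted p = 0.990 in MALME-3M, and CYP27A1, which makes 27-hydroxycholesterol, fell in SK-MEL-5 (-0.33 ± 0.098, adjusted p = 0.0344). CH25H, which makes 25-hydroxycholesterol, had 0 counts in the untreated libraries of either line, 3 counts in treated SK-MEL-5 and 1 in treated MALME-3M.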

How the data were processed

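RNA of 12 libraries of SK-MEL-5 and MALME-3M, untreated or treated with IFN-γ, was sequenced, 3 libraries per group. Libraries were numbered within a group to name them, since the labels give no replicate numbers, and none were paired. The authors deposited whole-number read counts per gene symbol, without normalization, per the file headers and summary lines (HTSeq), and per transcript an estimated count and a TPM value (kallisto), per the file headers. The tools in the submitters' processing notes are HTSeq, kallisto, STAR, SAMtools and cutadapt, with no version, and the build is hg38. For the annotation and the strand setting, nothing is given in the sources used here. Summary lines did not enter library sizes: relative to the gene counts, multiply placed alignments came to 7.47 to 13.7 times, alignments outside features to 0.533 to 0.850 times and ambiguous alignments to 4.19% to 4.54%.

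Gene counts were tested with edgeR 4.0.16 in R 4.3.3 (filterByExpr, minimum count 10, TMM), with 1 quasi-likelihood model over 12 libraries, with 8 residual degrees of freedom and a common BCV of 0.0955. It gave 5 contrasts: the IFN-γ change within SK-MEL-5, that within MALME-3M, their difference, and MALME-3M against SK-MEL-5 without and with IFN-γ. SE is the log2 fold change over the root of the F statistic and understates the error where a group has few counts. A count of 0 was given a floor of 3 counts over the group; intervals and floors cover counting error only. Libraries of 1 group differed beyond sampling noise (chi-square 6.35 to 19.3 per gene over 12 pairs). The fit was also run on simulated data as a check of the code. That simulation left out genes with few counts, and no conclusion on the calls reported here is drawn from it.

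Estimated counts of annotated transcripts (GENCODE 29; 49.9% to 55.2% of a library's estimated counts) were summed to genes and rounded, as an alternative. One assembled transcript took 46.6% to 57.7% of TPM, so TPM was rescaled over annotated transcripts and used for description. Other alternatives were DESeq2 1.42.0, its size factors, upper-quartile scaling, no filter, a fit on 2 groups, counts per kilobase, and leaving out each library. Promoter stretches are from RefSeq (GRCh38.p14). All 28 members were accounted for; values per library were given for members called after treatment and for the regulators, and genes of the other lists were named where called after treatment. The members and lists were chosen with earlier results of these data known. Genes of the pathway outside these lists were not analysed here.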

Additional observations from a re-analysis of the deposited data

Results flagged for a closer look

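The change after IFN-γ differed between the lines for 2 members, by the test of the difference itself (MALME-3M minus SK-MEL-5, log2, n = 3 libraries per group). This is 1 of 27 members tested (3.70%) in each direction, beside 2.67% of all genes upward and 1.79% downward. For SREBF1 it was 0.59 (edgeR adjusted p = 0.00176), with a rise in 3 of 3 treated MALME-3M libraries above all untreated ones. For IDI1 it was -0.33 (edgeR adjusted p = 0.0204), with 3 of 3 treated MALME-3M libraries below all untreated ones and overlapping groups in SK-MEL-5. The IDI1 call was lost when certain single libraries were left out (edgeR adjusted p from 0.0602 to 0.0762). From the transcript estimated counts neither difference was called, at 0.49 for SREBF1 (edgeR adjusted p = 0.412) and 0.01 for IDI1. Line, medium, serum and dose cannot be told apart in either value.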

How the results depend on the processing

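No paired analysis was possible because the labels give no replicate numbers. Of 60 results called for members, over the alternatives on gene counts 932 values kept their direction and call and 44 kept the direction and lost the call. From the transcript estimated counts 33 kept both, 22 lost the call and 5 changed sign: FASN in SK-MEL-5 (0.0227), the IDI1 difference of the changes (0.00707), SCAP between untreated lines (0.16), and PMVK (0.54) and SREBF2 (0.0189) between treated lines. The cause was not tested; these sums hold 2.30% to 94.0% as many reads as the gene counts. In this setting the genes called numbered 572 in SK-MEL-5 (2060 from gene counts), 942 in MALME-3M (2890), 137 for the difference (705) and 7411 between treated lines (11346), and the members called 2 in SK-MEL-5 (7), 2 in MALME-3M (10) and 1 for the difference (2). For the difference, 4 members were called with DESeq2 and 4 without the filter. With upper-quartile scaling the 691 genes called for the difference split into 340 higher and 351 lower, beside 422 and 283.

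Leaving out 1 library in turn, the genes called numbered 1364 to 2111 in SK-MEL-5, 2237 to 2938 in MALME-3M, 504 to 637 for the difference, 10938 to 11563 between untreated and 10966 to 11587 between treated lines. The members called numbered 4 to 8, 8 to 10, 1 to 4, 20 to 23 and 18 to 21. For the difference 1 was left without SK-MEL-5 treated replicate 3, MALME-3M untreated replicate 2 or MALME-3M treated replicate 2, and 4 were called without MALME-3M treated replicate 3. Without SK-MEL-5 untreated replicate 2 there were 1364 genes in SK-MEL-5. The calls of HMGCS1, IDI1, SQLE, EBP, INSIG1, FASN and SREBF1 in MALME-3M and of ACAT2, FDFT1, SQLE and SCD in SK-MEL-5 held in each of these. The fit on 2 groups gave no value for DHCR7 in MALME-3M. Relative to the median member, GRAMD1B, the highest by TPM in SK-MEL-5, moved with counts per kilobase of exon from 18.2 to 5.40 untreated and 14.9 to 5.04 treated, and FDFT1, the highest by TPM in MALME-3M, from 27.0 to 6.18 and 23.0 to 5.97. By counts per kilobase SCD was highest instead, at 10.2, 13.9, 10.8 and 12.4 times the median member in the same order of groups. At this depth 3 counts over a group are 0.0498 to 0.0572 CPM, which limits STARD4 in MALME-3M.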

Other observations

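Among genes outside the 28 members, FADS2, the desaturase that starts polyunsaturated fatty acid synthesis, differed most between the lines in the other fatty acid genes. It was at 1.84, 1.20 and 1.115 CPM in untreated SK-MEL-5 and 56.5, 58.9 and 49.6 CPM in untreated MALME-3M (log2 5.34 ± 0.15, edgeR adjusted p = 1.36e-16). The groups lay far apart, and the change after IFN-γ was 0.20 in each line, short of the threshold. ACACB, the mitochondrial acetyl-CoA carboxylase, was also higher in untreated MALME-3M (1.35), and ME1 was lower (-1.51).

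GRAMD1C, an Aster protein like GRAMD1B, rose in MALME-3M (0.50 ± 0.11, edgeR adjusted p = 0.00356). It was at 11.2, 12.7 and 13.1 CPM untreated and 17.2, 18.5 and 16.6 CPM treated there, without overlap. Its SK-MEL-5 change was -0.11, and the difference of the changes was 0.61 ± 0.17 (edgeR adjusted p = 0.0444). GRAMD1A was higher in untreated MALME-3M than in SK-MEL-5 (0.61). NPC1 and NPC2, which pass cholesterol out of the lysosome, were higher in untreated MALME-3M as well (0.81 and 0.80), while 6 of the 9 genes in their list, which covers SREBP processing, sterol sensing and lysosomal export, were lower there (median of the list -0.30). Over all genes tested, 37.2% were called lower and 34.5% higher in untreated MALME-3M. The line, the medium and the serum cannot be told apart in these differences.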
